A study of Mus musculus with 6 samples.

Results

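Collagen genes were followed through mouse stembryos, which are made by aggregating embryonic stem cells and form tissues of the trunk in culture. The members are all genes whose symbol consists of Col, a number, the letter a and a number, and 41 of the 25595 genes in the count table met this rule. Of these, 12 reached at least 10 CPM in some cell population and are named with their values below. CPM is the number of UMIs of a gene per 1000000 UMIs, and a UMI is a barcode that marks an original transcript. The 12 genes held 101192 of all 110147 collagen UMIs (91.9%), and Col4a1, Col18a1, Col2a1 and Col4a2 alone held 66.1%.

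The stembryos were made from wild-type (wt) mES cells and received a pulse of the Wnt agonist Chiron after aggregation and before the sampled times. There were 2 libraries of whole stembryos 96 h after aggregation and 2 at 120 h, and at 120 h an anterior part and a posterior part of a dissected pool gave 1 library each. Each library came from pooled stembryos, those without elongation at 120 h had been left out, and it is not labelled whether replicates came from separate cultures, so that p-values measure only the spread between these libraries. In all, 26968 cells carried the authors' names of 12 populations, called fates: NMPs A, NMPs B and NMPs C (neuromesodermal progenitors), Spinal cord A and Spinal cord B, early and late PSM (presomitic mesoderm), the determination front, where segments are set up, Somite A and Somite B, endoderm, and Pluripotent/PGC, in which pluripotent and primordial germ cells were joined.

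Collagens are extracellular proteins whose chains wind around each other into long helices. Type IV chains form the sheet-like network of basement membranes, fibrillar chains form fibres, and other families attach to fibres (FACIT), span the cell membrane, or sit in basement membranes as proteoglycans (multiplexins). In the embryo, type IV collagen lines epithelia such as the neural tube and the new somite, while type II collagen is best known from notochord and cartilage and is also made by neuroepithelium. Many collagens are built from the chains of several genes, so that the levels of partner genes can be set side by side.

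The promoters of Col4a1 and Col4a2, the genes with the highest and the fourth highest number of collagen UMIs, are shown because their transcripts moved together across the fates. The genes lie head to head on chromosome 8 in GRCm38 (mm10), Col4a1 at chr8:11198423-11312826 on the minus strand and Col4a2 at chr8:11312805-11449287 on the plus strand. Their start sites are 21 bases apart in RefSeq (GRCm38.p6). The windows below run from 250 bases before to 50 after each start site, 5′ to 3′ on the strand of the gene, and capitals mark the 78 bases (11312777 to 11312854) that both windows hold.
Col4a1, chr8:11312777-11313076, minus strand: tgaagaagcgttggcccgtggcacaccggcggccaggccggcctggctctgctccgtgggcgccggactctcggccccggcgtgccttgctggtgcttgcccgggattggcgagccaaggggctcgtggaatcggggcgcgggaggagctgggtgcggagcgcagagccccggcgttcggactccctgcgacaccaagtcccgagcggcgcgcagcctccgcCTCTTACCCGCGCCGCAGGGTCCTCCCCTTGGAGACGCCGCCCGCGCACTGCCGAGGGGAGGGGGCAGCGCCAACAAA
Col4a2, chr8:11312555-11312854, plus strand: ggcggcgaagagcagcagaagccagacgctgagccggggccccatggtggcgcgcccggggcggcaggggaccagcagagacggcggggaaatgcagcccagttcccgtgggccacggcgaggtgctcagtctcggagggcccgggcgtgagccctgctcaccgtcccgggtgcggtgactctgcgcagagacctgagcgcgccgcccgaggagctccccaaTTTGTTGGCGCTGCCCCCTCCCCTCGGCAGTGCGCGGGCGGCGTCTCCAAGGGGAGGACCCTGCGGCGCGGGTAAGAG
G and C made up 74% of the Col4a1 window and 73.7% of the Col4a2 window, against a median of 52.7% over all promoter windows. The shared stretch holds 1 GC box (GGGCGG on either strand) and no TATA box (TATAAA) or CCAAT box (CCAAT). Windows were matched for 33 of the 41 members (36 windows). A GC box stood in 61.1% of these windows and in 35.7% of all 32851 promoter windows. A TATA box stood in 13.9% against 13.6%, and a CCAAT box in 36.1% against 37.4%, each read on both strands.

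The labels of the fates were checked against marker lists. Of the markers of each kind, 7 of 10 were highest in NMP fates, 6 of 11 in spinal cord, 8 of 9 in PSM, 3 of 6 in determination front, 5 of 11 in somite, 9 of 11 in endoderm and 10 of 10 in pluripotent and germ cells. Per library there were 2649 to 7887 cells and 24303317 to 117580506 UMIs, with medians of 8723 to 22811 UMIs per cell, and 75 cell barcodes occurred in more than 1 library. Levels by fate and library are given where a library held at least 20 cells of a fate, which left 41 sums of 21 to 2897 cells. The fates are clusters made from these cells and genes, so that levels between fates are a description with no test. The 21 cells of the anterior part called Spinal cord A fitted that name only in part. Their 10 spinal cord markers (without Pax3, which is on both lists) summed to 1174 CPM with 5 at 0, against 799.5 to 1238 CPM in the other 4 libraries. Their 10 somite markers summed to 1537 CPM, against 19.1 to 187 CPM. Sox1 was at 0 CPM, Sox2 at 6.86 CPM, and the somite genes Meox1 and Tcf15 at 446 and 652 CPM. The other 4 libraries held Sox2 at 147 to 202 CPM and Meox1 at 9.56 to 40.8 CPM in this fate. Values for Spinal cord A are therefore given without these cells, and their own values stand beside them.

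Summed over all 41 members, collagen was highest in Somite B, with 612 ± 38.3 CPM (SD, n = 3 libraries), and the lowest Somite B library lay above every library of the other fates apart from the 21 anterior cells. Somite A held 380.3 ± 72.8 CPM (n = 4), determination front 282 ± 68.5 CPM (n = 5) and endoderm 313 CPM in 1 library. Early PSM held 167 ± 11.0 CPM (n = 4) and late PSM 189 ± 38.2 CPM (n = 4). Spinal cord A held 199.7 ± 18.6 CPM (n = 4) without the 21 cells, which by themselves stood at 693 CPM. The share of Col4a1 and Col4a2 in all collagen UMIs averaged 45.3% in Somite B, 45.5% in early PSM and 48.4% in endoderm, but 13.9% in Spinal cord B and 8.81% in Pluripotent/PGC. In Spinal cord B the members with the most UMIs were Col2a1 and Col18a1, at 79.1 and 66.9 CPM over all libraries, and in Pluripotent/PGC it was Col18a1, at 118 CPM, with Col2a1 at 4.34 CPM.

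**Figure D1:**
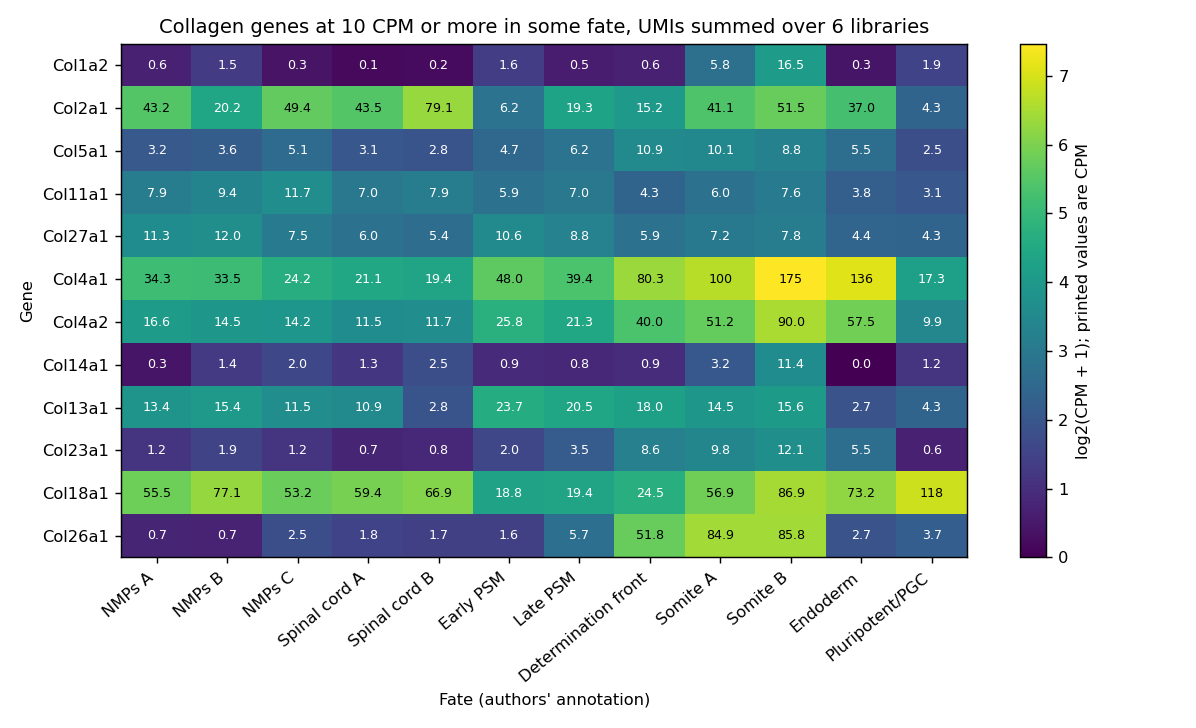
Level of the 12 named collagen genes (rows) in the 12 fates (columns), as CPM from UMIs summed over all 6 libraries; colour gives log2(CPM + 1). Col4a1 reaches 175 CPM in Somite B and Col18a1 118 CPM in Pluripotent/PGC, and Col26a1 lies at 51.8 to 85.8 CPM in determination front and somite but at 5.7 CPM or less elsewhere.

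Among type IV chains, Col4a1, which with Col4a2 builds the most widespread basement membrane network, was highest in Somite B. It stood at 173 CPM in the anterior part, 177 in replicate 1 and 210.3 in replicate 2 of 120 h. In Somite A it was at 102 CPM in the anterior part, 95.3 and 116 CPM in the replicates and 44.9 CPM in the posterior part, whose sum rests on 68 cells. All 3 Somite B libraries thus lay above all 4 of Somite A. Early PSM held 47.7 to 56.3 CPM and late PSM 36.6 to 54.8 CPM, and determination front held 61.1 to 96.6 CPM over 5 libraries. Every determination front library lay above every PSM library. Spinal cord B had 18.2 to 21.5 CPM, the narrowest range among fates with 3 or more libraries, and Pluripotent/PGC had 6.57 and 14.4 CPM.

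Col4a2 was also highest in Somite B, at lower counts. In Somite B it stood at 88.9 CPM in the anterior part, 92.3 in replicate 1 and 91.4 in replicate 2. Somite A held 37.8 to 56.2 CPM, determination front 24.4 to 53.5 CPM, early PSM 17.1 to 31.4 CPM and the NMP fates 10.6 to 26.1 CPM. Over the 41 sums, the level of Col4a2 was higher where that of Col4a1 was higher, with Pearson's r = 0.96 and Spearman's rho = 0.93, and without the 21 anterior cells r was 0.97. These sums share libraries, so that the correlation is a description. Col4a2 made up 26.9% to 39.8% of the UMIs of both genes in the 27 sums with at least 100 such UMIs, with a median of 34.0%. In Somite B of the anterior part the share was 34.0% (exact 95% interval 32.8% to 35.2%), in endoderm 30.1% (25.7% to 34.8%). Such intervals cover counting error only. A ratio between genes depends on how well each 3′ end is captured, so it is not the ratio of the chains.

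**Figure D2:**
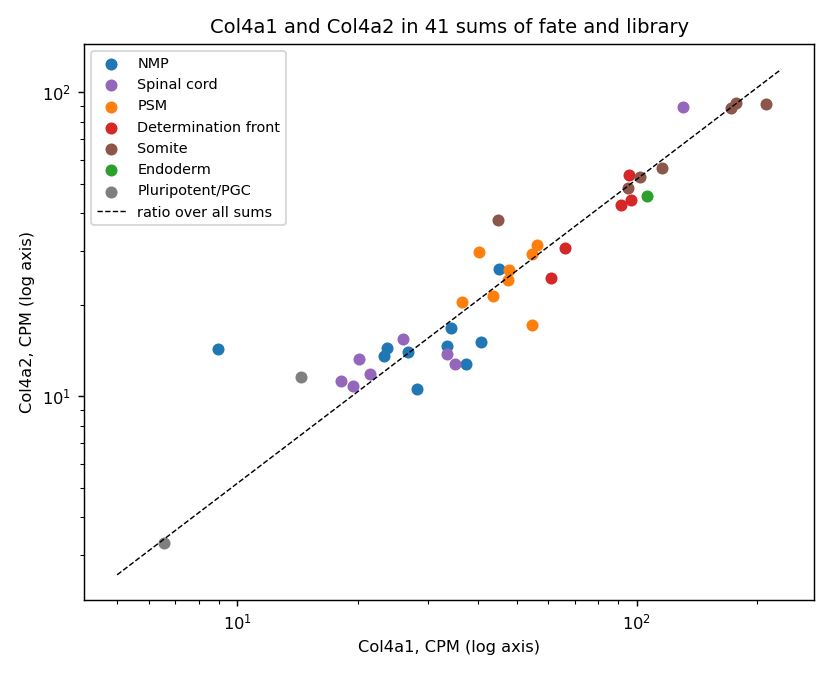
Col4a1 (horizontal) against Col4a2 (vertical) in CPM on log axes, with 1 point per fate and library for the 41 sums; the dashed line is the ratio over all of them. The Somite B points lie at the upper end, at 173 to 210.3 CPM of Col4a1, the Somite A point of the posterior part lies at 44.9 CPM, and the purple point at 130.4 CPM is the 21 anterior cells called Spinal cord A.

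The remaining type IV chains were scarcer. Col4a5 and Col4a6, partners in other basement membranes, are also head to head, on chromosome X with start sites 1343 bases apart in RefSeq. They held 1785 and 1118 UMIs in all, and both were highest in NMPs B, at 9.21 and 5.67 CPM. Across the 41 sums they moved together only weakly (r = 0.25, rho = 0.30), and with counts this low a weak correlation is no finding. Col4a4 held 202 UMIs.

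Col26a1, a secreted protein with short collagen stretches, was 128-fold higher in Somite B than in NMPs B over all libraries, with 11 UMIs in the latter. It was at 105 CPM in Somite A of the anterior part, 69.8 in the posterior part, 62.8 in replicate 1 and 66.7 in replicate 2 of 120 h. Somite B held 102, 44.1 and 65.7 CPM in the anterior part and the replicates. Somite A and Somite B thus overlapped. Determination front held 86.1 CPM in the anterior part, 42.9 in the posterior part, 54.7 and 46.6 in the 120 h replicates, and 6.98 CPM in the 27 cells of 96 h replicate 1. Late PSM, the fate just before it, held 3.18 to 7.83 CPM in 4 libraries, and early PSM at most 6.55 CPM. At least 1 Col26a1 UMI was found in 61.3% of Somite A, 60.0% of Somite B and 44.4% of determination front cells, against 7.20% of late PSM cells and 0.592% of NMPs B cells. With every cell thinned to 3000 UMIs these shares were 21.9%, 22.7%, 13.5%, 1.61% and 0.204%, and median depths ran from 8964 UMIs in NMPs B to 14075 in determination front. The 21 anterior cells called Spinal cord A held 151 CPM, against 0 to 6.65 CPM in the other libraries of this fate.

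Col18a1, a multiplexin whose end fragment is endostatin, had a different pattern. It was highest in Pluripotent/PGC, at 161 CPM in 28 cells of the posterior part and 115 CPM in 35 cells of 96 h replicate 2. Somite B followed with 82.2, 83.1 and 88.3 CPM, and endoderm stood at 75.3 CPM. Spinal cord B held 61.8 to 74.8 CPM, Spinal cord A 51.0 to 61.8 CPM without the 21 cells, and NMPs C 48.4 to 71.0 CPM. The 21 cells themselves stood at 130 CPM, from 19 UMIs. PSM was lowest, with 14.4 to 20.5 CPM early and 18.1 to 27.4 CPM late. The ranges of PSM and of the spinal cord fates did not overlap. From late PSM to Somite B the level of Col18a1 was higher at each step in the means, with 21.8, 26.6, 51.9 and 84.5 CPM. The ranges of late PSM and determination front overlapped, while determination front, Somite A and Somite B stood apart from each other. Col15a1, the other multiplexin, held 8 UMIs.

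**Figure D3:**
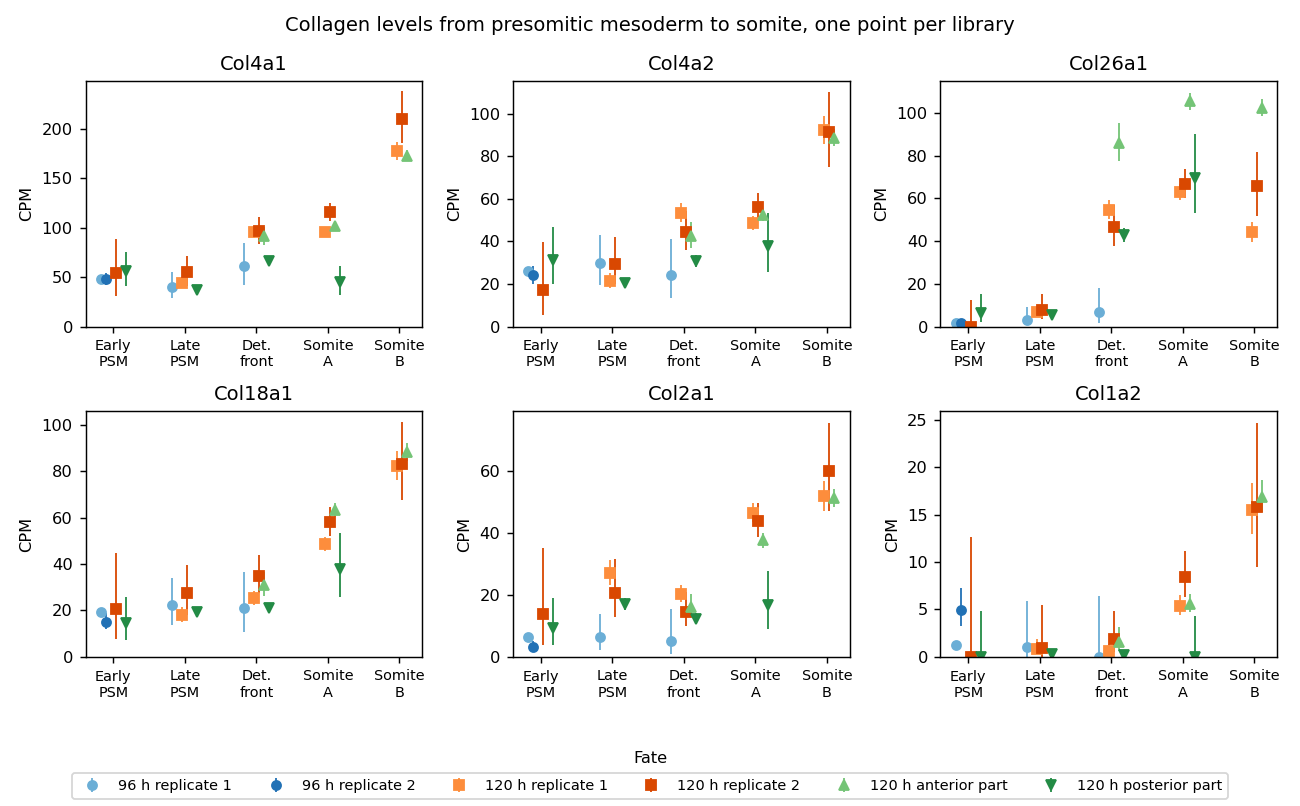
Level in CPM (vertical) of 6 collagen genes in 5 mesoderm fates (horizontal) from early PSM to Somite B, with 1 point per library that held at least 20 cells; bars are exact Poisson 95% intervals of the UMI count. Among these fates Somite B lies at the top for Col4a1, Col4a2, Col18a1, Col2a1 and Col1a2, and Col26a1 stays under 8 CPM in PSM.

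Among fibrillar collagens, Col2a1, the chain of type II collagen, was highest in Spinal cord B. It stood at 72.1 CPM in the posterior part, 94.2 in replicate 1 and 83.2 in replicate 2 of 120 h, all above every library of the other fates. Somite B held 51.0 to 59.8 CPM and NMPs C 43.6 to 59.4 CPM. Spinal cord A held 25.5 CPM in 38 cells at 96 h and 42.6 to 55.3 CPM in 3 libraries at 120 h. The 21 anterior cells of this name stood at 48.0 CPM, from 7 UMIs. NMPs A ranged from 17.9 to 44.1 CPM and NMPs B held 19.6 ± 0.591 CPM (n = 2). PSM held less, with 3.25 to 13.7 CPM early and 6.37 to 26.9 CPM late, and determination front held 5.24 to 20.2 CPM.

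Endoderm of the posterior part held Col2a1 at 39.5 CPM in 183 cells, of which 74 had a UMI, and the 19 cells with the most held 44.8% of the UMIs. Of 7 notochord markers, 1 was at 0 in these cells, and their summed level was 188 CPM, against 1.84 to 6.63 CPM in the somite libraries. The same sum was as high in progenitors, at 149 to 218 CPM in NMPs A and 153 and 258 CPM in NMPs B. Noto was at 0 CPM, Shh at 9.24, Foxa2 at 61.6 and T at 112 CPM over all endoderm cells. Of these, Foxa2 marks endoderm as well, and T is also an NMP marker, highest in NMPs A at 211 CPM. The part of notochord-like cells in the level of Col2a1 there was not tested.

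Col1a2, a chain of type I collagen, was highest in Somite B. It stood there at 16.9 CPM in the anterior part, 15.5 in replicate 1 and 15.8 in replicate 2. In Somite A it was at 5.6, 5.4 and 8.47 CPM in the same libraries and had no UMI in the 68 cells of the posterior part, where the exact Poisson 95% interval of a count of 0 reaches 4.36 CPM. Pluripotent/PGC of 96 h replicate 2 held 8.66 CPM from 3 UMIs. Early PSM of 96 h replicate 2 held 4.96 CPM, against 1.25 CPM in replicate 1. Its partner Col1a1 held 209 UMIs in all against 1058 of Col1a2 and peaked at 1.85 CPM, also in Somite B. The partners of the low type V collagen differed more, with 2415 UMIs of Col5a1 and 53 of Col5a2. Col5a1 ranged from 4.67 to 19.4 CPM in Somite B, 6.02 to 18.9 CPM in Somite A and 6.67 to 17.3 CPM in determination front, so that these fates overlapped. Col11a1, which joins type II fibres, stood near 10 CPM in progenitors (9.14 and 12.8 CPM in NMPs B, 4.75 to 18.7 CPM in NMPs C), and Col27a1, a fibrillar chain of cartilage, held 11.9 and 13.9 CPM in NMPs B. The fates with the highest and the lowest level differed 4.39-fold for Col5a1, 3.76-fold for Col11a1 and 2.76-fold for Col27a1, with 4 to 7 UMIs in the lowest.

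Col14a1, a FACIT collagen that decorates fibres, was highest in Somite B, with 9.72 CPM in the anterior part, 14.7 in replicate 1 and 20.8 in replicate 2. Somite A held 1.18 to 3.97 CPM, below each of these, and no endoderm cell of the posterior part had a UMI. Among transmembrane collagens, Col13a1, found at cell adhesion sites and the neuromuscular junction, had its highest mean in early PSM. Early PSM held 27.5 CPM in the posterior part, 24.0 and 21.8 in the 96 h replicates and 10.3 in 30 cells of 120 h replicate 2. Late PSM held 18.1 to 22.5 CPM, determination front 14.0 to 18.8 CPM and Somite A 12.4 to 16.6 CPM. Somite B held 28.1 CPM in replicate 1 and 11.1 and 14.1 CPM in the other libraries, and the ranges of all neighbouring fates overlapped. Spinal cord B was low, with 1.25 to 3.58 CPM. Col23a1, also transmembrane, held 7.21 to 15.3 CPM in determination front, 4.82 to 14.0 CPM in Somite A and 5.47 to 14.5 CPM in Somite B, against 0 to 4.89 CPM in late PSM.

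Markers of other cell types were read beside these levels. The endothelium sum was higher in every Somite B library than in Somite A, the sclerotome sum was higher in the anterior part and replicate 2 but lower in replicate 1, and the neural crest and parietal endoderm sums overlapped. The 6 markers of sclerotome and cartilage precursors summed to 109 CPM in the anterior part, 30.7 in replicate 1 and 89.8 in replicate 2, against 8.28 to 59.2 CPM in Somite A. Pax1 made up most of this sum, with 73.8 CPM over all Somite B cells, while Nkx3-2 was at 0.304 CPM and Acan at 0. The 8 endothelium markers summed to 4.99 to 20.7 CPM in Somite B and 3.03 to 4.73 CPM in Somite A, with Cdh5 at 0.759 CPM in Somite B. The same sum was 11.5 to 17.7 CPM in NMPs C, so that Somite B did not stand out from all other fates. Neural crest markers summed to 22.5 to 63.2 CPM in Somite B and 29.6 to 96.1 CPM in Somite A, and parietal endoderm markers to 179 to 219 CPM and 135 to 197 CPM. In endoderm the parietal endoderm markers summed to 147 CPM with Sox7 at 0. Pax1 is also on the somite list, Sparc and Lamb1 of the parietal endoderm list are also basement membrane partners, and the part of such cells in the collagen levels was not tested.

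The other 29 members stayed between 0.0367 and 9.21 CPM in their highest fate, and 13 of them stayed under 1 CPM. Col4a5 lay just below the threshold and Col5a1, at 10.9 CPM in determination front, just above it. The beaded filament chains Col6a1 to Col6a6 held 220 UMIs together, and the network chains Col8a2 and Col10a1 held 20. The largest of the 29 after Col4a5 were Col25a1, a transmembrane collagen, at 7.70 CPM in early PSM, Col4a6, Col3a1, a fibrillar chain of soft tissue, at 5.65 CPM in Somite B, and the FACIT collagen Col12a1 at 4.52 CPM in NMPs C.

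The anterior and posterior parts of the dissected pool could be compared within determination front and Somite A. Each part is 1 library, so that intervals cover counting error only and no test was possible. In determination front, Col26a1 stood at 86.1 CPM in the anterior part (exact Poisson 95% interval 77.7 to 95.1) and 42.9 CPM in the posterior part (39.8 to 46.1), a ratio of 2.01. Col23a1 was 2.12 times higher in the anterior part, Col18a1 1.47 times, Col4a1 and Col4a2 both 1.38 times, and their intervals did not overlap. The share of all genes whose intervals stood apart was not counted. These differences between the parts are therefore not read as a trait of collagen genes. Col13a1 was at 18.4 and 18.8 CPM and Col2a1 at 16.2 and 12.3 CPM, with overlapping intervals. In Somite A, Col4a1 stood at 102 CPM (98.1 to 106) against 44.9 CPM (31.8 to 61.7), and Col2a1, Col18a1 and Col26a1 were also higher in the anterior part, at 2.26, 1.67 and 1.51 times. Col5a1 went the other way, at 6.02 CPM (5.12 to 7.04) in the anterior and 18.9 CPM (10.8 to 30.7) in the posterior part, the latter from 16 UMIs. Col13a1 was also higher in the posterior part, at 16.6 against 13.7 CPM, with overlapping intervals.

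Whole stembryos were compared between 96 h and 120 h. Col26a1 rose from 1.09 and 0.823 CPM at 96 h to 28.1 and 23.4 CPM at 120 h, a log2 change of 4.60 ± 0.28 (edgeR adjusted p = 0.0211). It was called under every alternative tried, with log2 changes of 4.39 to 4.97. It was the 1 member called of 30 tested, where 153 of 18114 genes passed (0.845%). The share of determination front and somite cells moved with it, from 0.567% and 0.0755% of cells at 96 h to 47.4% and 36.4% at 120 h. Cell shares and the amount per cell cannot be told apart in whole libraries. Without these 3 fates, Col26a1 stood at 1.06 and 0.823 CPM at 96 h, against 3.83 and 3.26 CPM at 120 h.

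In the deposited annotation, whole libraries with the same replicate number belong to the same batch. With the replicate as a block, 14 of the 30 members passed, against 3088 of all genes (17.0%). This fit leaves 1 residual degree of freedom, against 2 without the block. Of the 14, 11 were higher at 120 h and 3 lower. Type IV chains Col4a1 and Col4a2 were higher, at 40.1 and 38.6 CPM against 66.9 and 63.2 CPM for Col4a1 with a log2 change of 0.65 ± 0.08 (edgeR adjusted p = 0.00206 with the block and 0.139 without), and at 20.6 and 16.7 CPM against 35.9 and 30.2 CPM for Col4a2 (0.0018 and 0.224). Without the 3 fates of determination front and somite, Col4a1 stood at 40.0 and 38.6 CPM at 96 h, against 26.6 and 31.7 CPM at 120 h. Col4a2 stood at 20.6 and 16.7 CPM against 15.5 and 15.6 CPM in these cells, so that both genes were lower at 120 h there.

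Fibrillar chains made up most of the other rises in the blocked fit. Col3a1 stood at 0.604 and 0.37 CPM at 96 h, against 6.28 and 4.18 CPM at 120 h (log2 change 3.32 ± 0.24, edgeR adjusted p = 0.000181 with the block and 0.0596 without). Col1a1, Col2a1, Col5a1, Col11a1 and Col11a2 were higher as well, with log2 changes of 3.77, 1.08, 1.17, 0.46 and 1.72. So were Col14a1 (2.04) and Col23a1 (0.92). Without the block the edgeR adjusted p of these genes ran from 0.120 (Col5a1) to 0.315 (Col11a1). With the block Col11a1 passed narrowly (edgeR adjusted p = 0.0498). Col1a1 held only 9 and 0 UMIs at 96 h. Without determination front and somite cells Col23a1 stood at 1.6 and 1.77 CPM at 96 h, against 1.62 and 0.859 CPM at 120 h, so that its mean was lower at 120 h. Col2a1 went from 27.8 and 17.0 CPM to 46.4 and 54.3 CPM. The lower genes were Col4a6 (-1.03), Col27a1 (-0.65) and Col13a1 (-0.60). Col27a1 stood at 11.2 and 10.9 CPM at 96 h, against 7.60 and 7.30 CPM at 120 h. Col18a1 stood at 40.3 and 62.5 CPM at 96 h, against 48.7 and 63.3 CPM at 120 h, so that the times overlapped (log2 change 0.05 ± 0.20, edgeR adjusted p = 0.95). Without the block, the median log2 change was 0.09 over the 30 members and 0.02 over all genes tested.

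**Figure D4:**
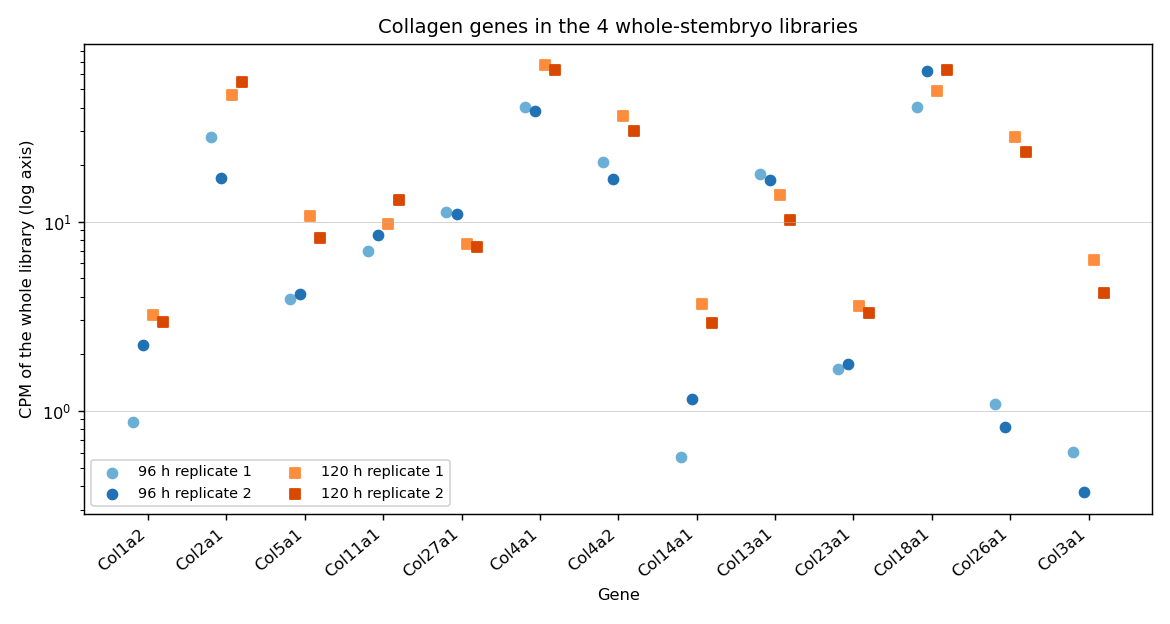
CPM (vertical, log axis) of the 12 named collagen genes and Col3a1 (horizontal) in the 4 whole-stembryo libraries, circles for 96 h and squares for 120 h. The times stand apart most for Col26a1 (0.823 and 1.09 against 23.4 and 28.1 CPM), and overlap for Col18a1.

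In NMP cells, which feed the growing axis, no member of 23 was called, where 1 of 15584 genes passed (0.00642%). At an unadjusted p under 0.05 there were 9 members and 1800 of all genes, and DESeq2 called 1 member, Col3a1, and 446 genes. The NMP clusters differed between times: NMPs A made up 97.6% of the NMP cells in 96 h replicate 1 and NMPs B 83.4% in replicate 2, while NMPs C made up 99.2% and 93.7% at 120 h. With the replicate block 5 members passed, against 1122 genes (7.20%). Col3a1 went from 0.431 and 0.329 CPM to 7.58 and 3.12 CPM, with a log2 change of 3.79 ± 0.34 (edgeR adjusted p = 0.00312 with the block and 0.124 without), Col26a1 from 0.668 and 0.657 CPM to 3.17 and 2.21 CPM, and Col11a1 from 7.85 and 9.42 CPM to 12.2 and 18.6 CPM. Col4a1 was lower, at 34.4 and 34.8 CPM against 23.6 and 26.6 CPM, with a log2 change of -0.57 ± 0.10 (edgeR adjusted p = 0.0279 with the block and 0.223 without). Col4a6 was lower too, from 4.91 and 6.03 CPM to 1.64 and 2.99 CPM. The NMP sums of the times did not overlap for any of these 5 genes. The fit had picked them from the same sums, so that this adds no support.

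In PSM cells no member of 15 was called either, where 52 of 12021 genes passed (0.433%). At an unadjusted p under 0.05 there were 7 members and 1187 of all genes, and DESeq2 called 2 members, Col2a1 and Col3a1, and 169 genes. Early PSM made up 97.6% and 99.2% of these cells at 96 h, and late PSM 98.6% and 78.6% at 120 h. With the block 5 members passed, against 828 genes (6.89%). Col2a1 stood at 6.4 and 3.23 CPM at 96 h, against 26.6 and 19.0 CPM at 120 h (log2 change 2.05 ± 0.22, edgeR adjusted p = 0.000645 with the block and 0.0875 without). Col3a1 went from 0.856 and 0.569 CPM to 7.22 and 6.84 CPM (3.03 ± 0.37), Col26a1 from 1.61 and 1.52 CPM to 6.80 and 6.08 CPM (1.94 ± 0.34), and Col11a2 from 0.733 and 0.38 CPM to 2.83 and 2.28 CPM (1.90 ± 0.44). Col25a1 was lower, at 7.68 and 8.54 CPM against 2.97 and 3.04 CPM (-1.51 ± 0.31). The 120 h values of Col25a1 rest on 21 and 4 UMIs. Counts were low for the others too in replicate 2. At 96 h and 120 h it held 2 and 3 UMIs of Col11a2 and 3 and 9 of Col3a1. It held 8 and 8 UMIs of Col26a1 and 17 and 25 of Col2a1. Col4a1 stood at 47.6 and 47.8 CPM against 44.2 and 54.8 CPM and did not separate the times.

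The changes in NMP and PSM cells were then compared by a term for class and time together, each library being a block. Of 22 members, Col2a1 was called, where 231 of 14842 genes passed (1.56%). Its log2 change was 1.65 ± 0.20 larger in PSM than in NMP cells (edgeR adjusted p = 6.28e-05), with changes of 2.05 ± 0.37 in PSM and 0.62 ± 0.38 in NMP cells. The NMP values were 43.8 and 21.1 CPM at 96 h, against 50.7 and 58.6 CPM at 120 h. The low sum, replicate 2 at 96 h, consisted to 83.4% of NMPs B cells, while replicate 1 consisted to 97.6% of NMPs A cells. With the replicate block in place of the library the difference was 1.32 (edgeR adjusted p = 0.408), and without 120 h replicate 1 it was 1.06 (edgeR adjusted p = 0.30). For Col26a1 the difference was -0.09 ± 0.41 (edgeR adjusted p = 1.00) and for Col4a1 0.45 ± 0.13 (edgeR adjusted p = 0.121).

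**Figure D5:**
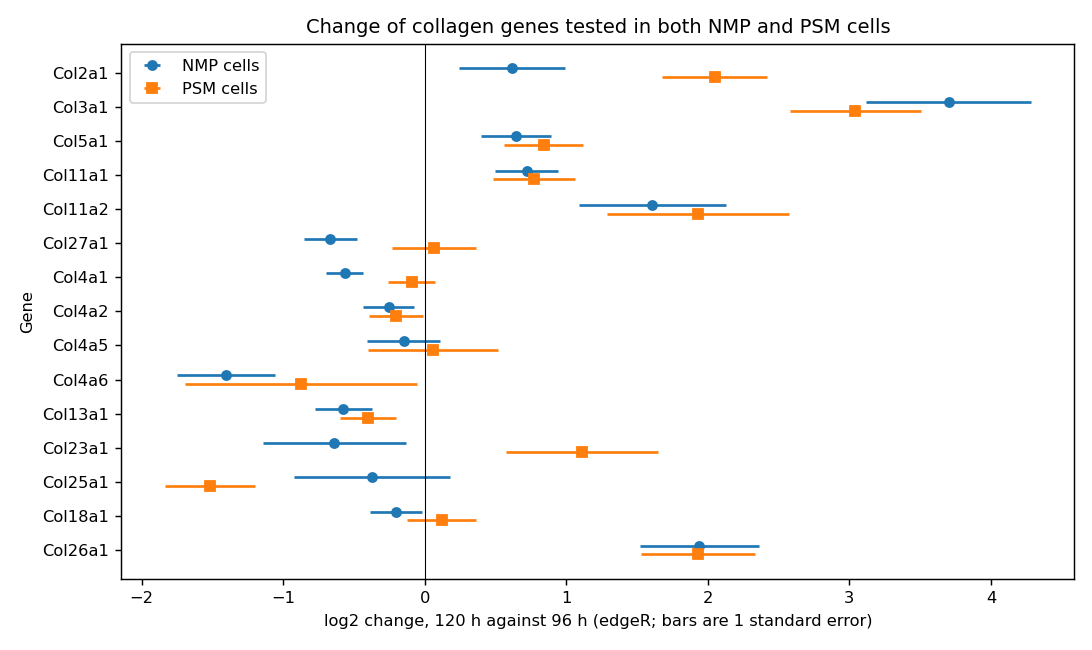
log2 change from 96 h to 120 h (horizontal) of the collagen genes tested in both classes (vertical), circles for NMP and squares for PSM cells; bars are 1 standard error of the edgeR fit without block. Col2a1 lies at 0.62 in NMP and 2.05 in PSM cells, while Col26a1 lies at 1.94 and 1.93.

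Genes that process, surround or bind collagen were read from lists. None of the 26 tested genes of collagen assembly was called in whole libraries, and 9 were higher and 2 lower with the block, where 17.0% of all genes passed. Among the 9 were Serpinh1, the collagen chaperone, with 154 and 139 CPM at 96 h, against 211 and 198 CPM at 120 h, the lysyl hydroxylases Plod1 and Plod2, the lysyl oxidases Loxl1 and Loxl2, and Pcolce, an enhancer of procollagen cleavage. Over the fates, Plod1 and Pcolce were highest in Somite B, at 74.1 and 45.2 CPM against 4.64 and 1.48 CPM in early PSM, and Pcolce2 was highest in early PSM, at 47.2 CPM against 1.94 CPM in Somite B. Lox held 4 UMIs. In NMP cells 1 of 24 assembly genes was higher with the block, Loxl2, and in PSM cells 2 were higher and 1 lower of 20, where 7.20% and 6.89% of all genes passed.

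Of 14 tested basement membrane partners none was called in whole libraries, and 1 was higher and 2 lower with the block, a share near the 17.0% of all genes. Fn1, fibronectin, stood at 165 and 181 CPM at 96 h, against 100.1 and 94.6 CPM at 120 h (log2 change -0.90 ± 0.13, edgeR adjusted p = 0.0663 without the block). Unlike Col4a1, Fn1 was highest in early PSM, at 328 CPM, and stood at 114 CPM in Somite B. The laminin gene Lamb1 was highest in Somite A, at 77.3 CPM, and Nid2, a nidogen that links laminin to type IV collagen, in Somite B, at 70.5 CPM. The interaction called Fn1 and Nid2 without, and neither with, the replicate block. Of 5 tested collagen receptors none was called, and with the block, under which 17.0% of all genes passed, 3 were higher (the integrin subunit Itgb1, the receptor kinase Ddr1 and the uptake receptor Mrc2) and 1 lower, the integrin subunit Itga1, at 4.49 and 5.35 CPM against 1.37 and 1.17 CPM.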

How the data were processed

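Single cells of 6 libraries were measured with 10x 3′ chemistry, V3 in batches 1 and 2 and V3.1 in batch 4. The deposited table holds raw UMI counts of 25595 genes in 26968 cells, which the authors made with Cell Ranger 6.0 on mm10 and filtered in Seurat 4.0.2 (tools per the submitters' processing notes). The deposited annotation, also by the authors, gives each cell's library, batch, fate, a percentage of mitochondrial counts (at most 7.98%) and cell-cycle scores, of which scores were not used. No doublet caller was run here. All cell totals matched the annotation, and cells held 0.302 to 2.48 times the mean UMIs of their library.

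UMIs were summed per library, per fate and library (at least 20 cells) and per class (NMP, PSM). CPM is not divided by gene length, since 3′ counts do not scale with it. Sums were tested with edgeR 4.0.16 in R 4.3.3 (quasi-likelihood, TMM factors, filterByExpr, two-sided, Benjamini-Hochberg adjustment over all genes tested, called under 0.05), after a test on simulated data. DESeq2 1.42.0, other scalings, no filter, other cells and libraries left out were alternatives. Exact intervals are at the 95% level and cover counting error only, and depth limits low counts most in replicate 2 of each time. Tables and figures used Python 3.11.15, pandas 2.3.3, scipy 1.17.1 and matplotlib 3.10.9. Same-numbered whole libraries share a batch in the annotation, and their deviations from the time means correlated with r = 0.567 (whole libraries), 0.541 (NMP sums) and 0.429 (PSM sums), so that the replicate pairs the samples.

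Members were taken by symbol and named at 10 CPM in a fate, from UMIs summed over libraries. Other members are named where they passed a test, form a pair with a named chain or lie below the threshold. The members and gene lists were chosen with earlier results of these data known. Endoderm was not tested over time, since the whole libraries held fewer than 20 such cells each. Gm20485 and Gm44716 overlap Col26a1 and Col4a1 on the same strand, with 126 and 127 UMIs.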

Additional observations from a re-analysis of the deposited data

Results flagged for a closer look

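The change of Col2a1 from 96 h to 120 h differed between cell classes, being 1.65 larger in PSM than in NMP cells on the log2 scale (edgeR adjusted p = 6.28e-05). The call was lost with the replicate block in place of the library (1.32, edgeR adjusted p = 0.408) and without 120 h replicate 1 (1.06, edgeR adjusted p = 0.30). Col2a1 was higher at 120 h in both libraries of each class, but the NMP sum of 96 h replicate 2 (21.1 CPM) lay well under that of replicate 1 (43.8 CPM). The classes joined different clusters at the 2 times, and the NMP sums of 96 h also differed in their main cluster between replicates. The part of this in the difference was not tested.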

How the results depend on the processing

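Col26a1 in whole libraries passed under all 11 alternatives. The number of collagen genes called moved with the test, as did that of all genes, which in whole libraries was 153 of 18114, and 3088 with the replicate block, 1155 with DESeq2 and 1199 of 24700 with no filter. In whole libraries it was 1, and 14 with the replicate block, 7 with DESeq2 and 9 with no filter on low counts. In NMP cells it was 0, and 5 with the replicate block, 1 with DESeq2 and 4 with no filter. In these settings 1, 1122, 446 and 1010 of all genes passed. In PSM cells it was 0, and 5 with the replicate block and 1 with no normalization factors, where 52, 828 and 57 of all genes passed. It was 2 with DESeq2, 4 with no filter and 3 with the dissected pool as another 120 h sample. In these settings 169, 528 and 184 of all genes passed. With cells of at most 1.5 times the mean UMI count it was 2, where 70 of all genes passed. For the difference between PSM and NMP cells it was 1, and 2 with no filter and 0 with the replicate block. In these settings 231, 414 and 55 of all genes passed. The replicate pairs the samples by batch, and calls gained with this block rest on 1 residual degree of freedom. The cause of these moves was not tested. At a threshold of 20 CPM, 6 collagen genes would be named.

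Directions reversed only among uncalled changes. Col27a1 in PSM cells (0.06 on the log2 scale) was -0.031 with the replicate block, -0.063 with the dissected pool and -0.20 to 0.45 with a library left out. Col4a1 in PSM cells (-0.09) was 0.027 with no normalization factors, a setting that shifted the median of all genes to 0.11. Col18a1 ranged from -0.17 to 0.29 in whole libraries and from -0.091 to 0.39 in PSM cells with a library left out. Of the other values for single genes, 352 kept direction and side of the threshold, 53 passed it only under the alternative and 2 no longer passed. The fate with the highest level stayed the same for 8 to 12 of the 12 named genes. Alternatives for endoderm were not run, since the whole libraries held too few such cells.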
